A study of Mus musculus with 2 samples.

Results

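Immediate early and heat shock genes were followed through the immune cells of the adult mouse lung: 36 named genes, all of them found among the 31053 genes of the matrices. They form a list of named genes, and no threshold on their values was applied. The list holds 7 AP-1 genes (Fos, Fosb, Fosl2, Jun, Junb, Jund and Atf3), the 3 Nr4a nuclear receptors, 8 heat shock genes (Hspa1a, Hspa1b, Hsph1, Dnaja1, Dnajb1, Hspa8, Hsp90aa1 and Hspe1) and 18 further genes (Egr1, Egr2, Egr3, Ier2, Ier3, Ier5, Dusp1, Dusp2, Dusp5, Klf4, Klf6, Zfp36, Btg2, Gadd45b, Gadd45g, Rhob, Ppp1r15a and Nfkbia).

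The study holds 2 single-cell RNA libraries, 1 from tamoxifen-injected and 1 from oil-injected adult mice. All animals carried Gli1creERT, a Cre recombinase that is driven by Gli1 and needs tamoxifen to act, and floxed Hhip, so the oil group carries the same alleles without the inducer. Gli1 marks mesenchymal cells that respond to Hedgehog signals and Hhip encodes an inhibitor of that signal, so the cells measured here, live CD45-positive lung cells that an antibody injected into the blood had not labelled, are mostly not those the Cre is driven in. No group received tamoxifen without the floxed allele or the Cre, so the drug and the deletion cannot be told apart. Each library may pool several animals, as the labels give no number, and each held both female and male cells. Each group is 1 library without a replicate, so all intervals below are 95% intervals for counting error only, and no test between the groups was possible.

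Immediate early genes are transcribed within minutes of a stimulus from factors already present in the cell, and many encode transcription factors. Fos and Jun proteins pair to form AP-1, Nr4a receptors act without a known natural ligand and are used as a readout of antigen receptor signalling in lymphocytes, and Dusp phosphatases, Zfp36 and Nfkbia feed back on the signal that induced them. Heat shock genes encode chaperones that are raised through the factor Hsf1 when proteins unfold. Genes of both kinds are also known to be induced while a tissue is digested to single cells, and the lungs of both groups were digested with Liberase and DNase; the part of that step in the levels was not tested.

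Hspa1a and Hspa1b encode the inducible Hsp70 and lie 9951 bases apart on mouse chromosome 17 on the minus strand. Their promoters are shown because these genes, together with Dnajb1, moved apart from the other heat shock genes below. The 250 bases before each start (RefSeq, GRCm38.p6, minus strand, chr17:34972157-34972406 for Hspa1a and chr17:34959239-34959488 for Hspa1b) are written 5′ to 3′, with capitals for a match to GAANNTTC, the letters of a heat shock element pair, which begins 104 bases before the start in both.
Hspa1a: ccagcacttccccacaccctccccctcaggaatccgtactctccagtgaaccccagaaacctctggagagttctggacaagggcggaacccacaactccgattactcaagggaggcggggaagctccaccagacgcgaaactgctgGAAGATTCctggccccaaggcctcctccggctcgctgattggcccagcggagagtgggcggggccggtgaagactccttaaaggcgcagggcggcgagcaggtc
Hspa1b: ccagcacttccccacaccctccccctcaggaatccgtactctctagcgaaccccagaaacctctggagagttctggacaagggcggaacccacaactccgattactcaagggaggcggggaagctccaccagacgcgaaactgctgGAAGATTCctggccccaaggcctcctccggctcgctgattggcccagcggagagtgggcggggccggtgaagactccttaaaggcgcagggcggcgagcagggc
The pair shared 247 of 250 bases. GAANNTTC was found in 4 of 10 windows of the heat shock genes (Dnaja1, Hspa1a, Hspa1b and Hspe1), in 2 of 7 AP-1 windows (Fosl2 and Jun) and in 6.69% of all 32851 promoter windows, and the tail-to-tail form TTCNNGAA in 3 of 10 (Hspe1 and both windows of Hsph1) and in 7.17% of all. Of the genes' mature transcripts, 58.8% of the 50-base words of Hspa1a also occur in Hspa1b, but none of the words in the last 500 bases, where 3' tags are read, do.

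The serum response gene type of promoter is shown by Dusp5, a nuclear phosphatase that acts on the kinase ERK. In the 214 bases before the gene (RefSeq, GRCm38.p6, plus strand, chr19:53528895-53529108) capitals mark 2 adjoining matches to the CArG box, the element bound by serum response factor.
Dusp5: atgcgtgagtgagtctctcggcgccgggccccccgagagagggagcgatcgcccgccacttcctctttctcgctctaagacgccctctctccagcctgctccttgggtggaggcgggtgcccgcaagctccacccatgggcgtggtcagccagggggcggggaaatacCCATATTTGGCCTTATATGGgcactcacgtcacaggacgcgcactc
CArG boxes were found in 6 of 19 windows of the Egr, feedback and other genes (Dusp5, Egr2 and Zfp36), in none of the 7 AP-1 windows and in 1.47% of all windows. Some of the 6 were overlapping windows of Egr2 that hold the same box. The cAMP response element TGACGTCA was found in 3 of those 19 windows (Btg2, Dusp1 and Ppp1r15a) and in 1.55% of all, and the AP-1 element TGANTCA in none of the members' 39 windows and in 6.75% of all. Both strands were read for each. Only the 250 bases before each start were searched, so elements farther out, in Fos or any other gene, were not looked for. Windows were at hand for 31 of the 36 genes, and a match of letters is a description and not a bound site.

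Cells were kept with at least 300 genes and under 10% mitochondrial UMIs, which left 10138 tamoxifen and 6794 oil barcodes, and were sorted into 12 gates by marker UMIs. Cells with a Cd3d, Cd3e or Cd3g UMI were split by Cd4, Cd8b1 and Trdc into CD4, CD8, Trdc (gamma-delta) and other T cells. Cells without Cd3 entered the ILC2 gate by Il1rl1 and the NK gate by Ncr1 or Klre1. The remaining gates took B cells (Cd79a, 2 UMIs), alveolar macrophages (Krt79 and Plet1, 2), C1q macrophages (C1qa and C1qb, 5), cDC1 dendritic cells (Xcr1 and Clec9a, 2), a gate named here by its genes Mgl2 and Cd209a (1), and fibroblasts (Dcn and Col1a2, 3). The sort was for CD45, which fibroblasts lack, so the few cells of that gate are ones that came through it. Barcodes that passed more than 1 gate were left out, which left 6462 tamoxifen cells and 3724 oil cells in the 12 gates. With the gating genes left out, the marker list of each gate that had one summed to its highest level in its own gate in both libraries, except for the list of type 2 dendritic cells. That list had 555 and 618 CPM with tamoxifen and oil in the Mgl2/Cd209a gate, against 988 and 853 CPM in the alveolar macrophage gate, so the Mgl2/Cd209a gate is not given a cell type name. For CD4 T cells the rest of the list was Cd40lg and Trac, at 896 and 874 CPM with tamoxifen and oil in their gate and 719.6 and 797 CPM in the CD8 gate, and for CD8 T cells Cd8a and Trac, at 757 and 825 CPM in their gate and 689.5 and 659 CPM in the CD4 gate.

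The libraries held 83730550 UMIs in 12980 barcodes with tamoxifen and 57704412 UMIs in 10342 barcodes with oil, and 41 barcode sequences occurred in both. Hhip, the targeted gene, had 30 UMIs in 14 barcodes with tamoxifen and 50 UMIs in 28 barcodes with oil, or 0.358 and 0.866 CPM over all barcodes (log2 ratio -1.27, -1.98 to -0.59). In the fibroblast gate it had 7 and 13 UMIs, or 25.3 and 39.3 CPM (log2 ratio -0.63, -2.20 to 0.80). UMIs of 1 cell are not independent, so these intervals are too narrow, and the mix of cells differed between the libraries. It is not known whether the counted 3' tags lie in the floxed part, so these values do not check the deletion. Gate sizes differed: there were 76 tamoxifen and 252 oil cells in the ILC2 gate, 58 and 146 in the NK gate, 1589 and 245 in the alveolar macrophage gate and 35 and 43 in the fibroblast gate. Median UMIs per cell lay between 3707 and 13065 over the gates with tamoxifen and between 4412 and 14008 with oil. Transcripts of other cells moved with the libraries: the neutrophil list (S100a8, S100a9, Retnlg and Csf3r) summed to 7441 and 889 CPM with tamoxifen and oil in other T cells and to 3708 and 23.1 CPM in ILC2, the epithelial list to 4502 and 18.1 CPM in fibroblasts and 1304 and 148 CPM in the Mgl2/Cd209a gate, and the red cell list to 46.98 and 3455 CPM in ILC2. Their part in the results below was not tested; values without barcodes that hold such transcripts are given below. In sums over a gate, fewer expressing cells and less RNA per cell cannot be told apart. Shares of cells with a UMI are therefore given for Hsph1 and Fos. For these shares each cell was thinned to 1500 UMIs, and cells with fewer were left out.

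Levels are UMIs of a gene summed over the cells of a gate and scaled to the total UMIs of that gate (CPM), and compare a gene between gates or libraries. The 36 genes made up 1.78% of the UMIs of kept tamoxifen cells and 2.10% of those of oil cells. They held 63924 and 50883 CPM in tamoxifen and oil fibroblasts, against 9907 and 9785 CPM in the B gate, the lowest. The B gate also held plasma cell transcripts: Jchain, Mzb1 and Sdc1 summed to 14377 and 18082 CPM there with tamoxifen and oil. Its B cell list summed to 6440 and 6245 CPM. Plasma transcripts enter the total to which that gate is scaled, and their part in its low levels was not tested. Fibroblasts stood apart through most AP-1 genes and Egr1, among others. The AP-1 genes summed to 31349 and 26032 CPM there with tamoxifen and oil. In the 11 other gates they summed to between 2634 and 7094 CPM with tamoxifen, and between 2553 and 7313 CPM with oil. Fosl2 was not highest in fibroblasts, and Egr2 peaked in alveolar macrophages and Egr3 in cDC1 in both libraries. With tamoxifen, Rhob and Hspa1a in fibroblasts were 29.5 and 28.9 times the median of the other gates, beside 14.4 for Fos and 24.6 for Jun. The sum of the heat shock genes was the most even, at 3703 to 5342 CPM with tamoxifen and 4539.6 to 6292 CPM with oil outside fibroblasts. In fibroblasts it was 7919 and 7944 CPM. Single heat shock genes were not all even. Hspa1a ran from 15.3 CPM in CD8 T cells to 1569 CPM in fibroblasts with tamoxifen, and from 8.88 CPM in NK cells to 1235 CPM in fibroblasts with oil.

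**Figure D1:**
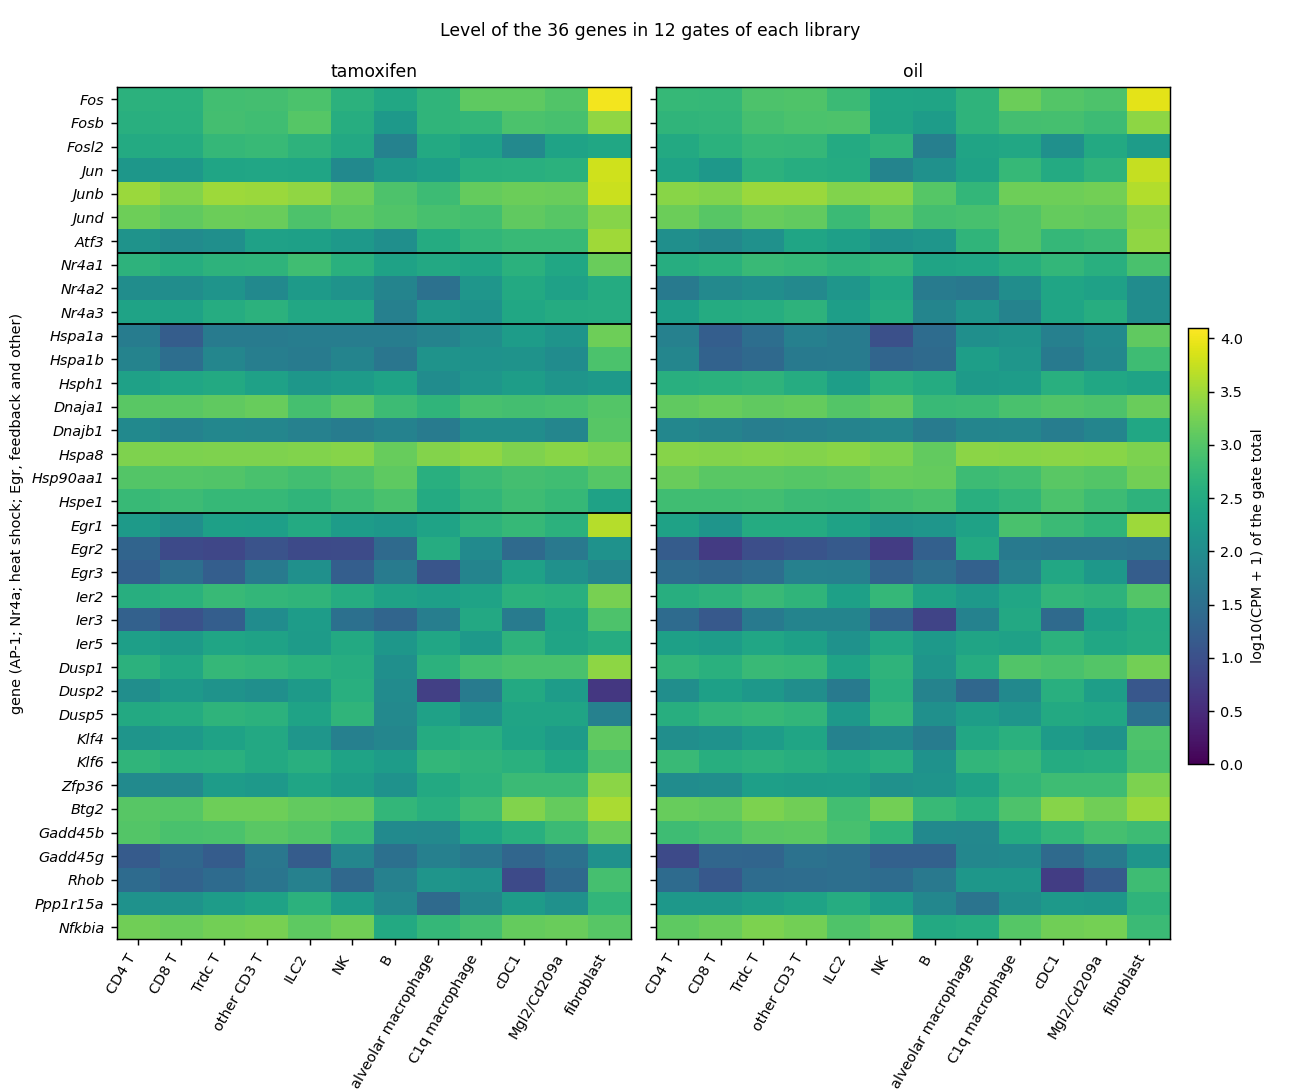
Level of each of the 36 genes, as log10(CPM + 1), in the 12 gates of the tamoxifen library (left) and the oil library (right); black lines separate AP-1, Nr4a, heat shock and the other genes. Fos, Jun, Egr1 and Atf3 are brightest in the fibroblast column of both libraries, and Junb, Hspa8 and Nfkbia are bright in most columns.

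Junb led the AP-1 genes in most gates, and Jund or Fos in others. Junb was the highest of the 7 in all 4 T gates, ILC2 and NK cells of both libraries. The same held in C1q macrophages, cDC1 and the Mgl2/Cd209a gate. Junb had 3185 CPM in tamoxifen and 3089 CPM in oil Trdc T cells. In B cells Jund led with tamoxifen and Junb with oil. Jund led in alveolar macrophages at 792 and 809.9 CPM, and Fos in fibroblasts at 10502 and 8626 CPM. Across the 12 gates the log2 level of Fos followed that of Jun (Pearson r 0.97 with tamoxifen and 0.98 with oil, and 0.88 and 0.93 in the 11 gates without fibroblasts) and that of Egr1 (0.97 and 0.96). The median pairwise r of the AP-1 genes was 0.51 with tamoxifen and 0.53 with oil, and 0.27 and 0.36 without fibroblasts. That of the heat shock genes was 0.028 and 0.081, and 0.20 and -0.023 without fibroblasts. These correlations are descriptions over gates that share a library and its depth. Nr4a1 led its family in every gate except tamoxifen cells of the Mgl2/Cd209a gate, where Nr4a3 did, and Hspa8, the constitutive Hsp70, led the heat shock genes in all gates but oil B cells, where Hsp90aa1 did.

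Over all pairs of a member and a gate, 420 of 432 had at least 30 UMIs in the libraries summed. Of these, 42 were at least 1.5-fold higher with tamoxifen, beside 8.62% of all pairs of a gene and a gate, and 35 were at least 1.5-fold lower, beside 8.41%. Both shares are near that background. AP-1 gave 1 higher and 4 lower of 84 pairs, Nr4a 6 and 1 of 36, the heat shock genes 10 and 15 of 95, and the Egr, feedback and other genes 25 and 15 of 205. As a mean over the 12 gates, the log2 ratio of summed CPM of tamoxifen over oil was -0.0013 for AP-1, 0.055 for Nr4a, -0.17 for heat shock and 0.0088 for the other genes. As a mean over gates, no arm reached a 1.5-fold difference, and the differences lay in single genes and gates.

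**Figure D2:**
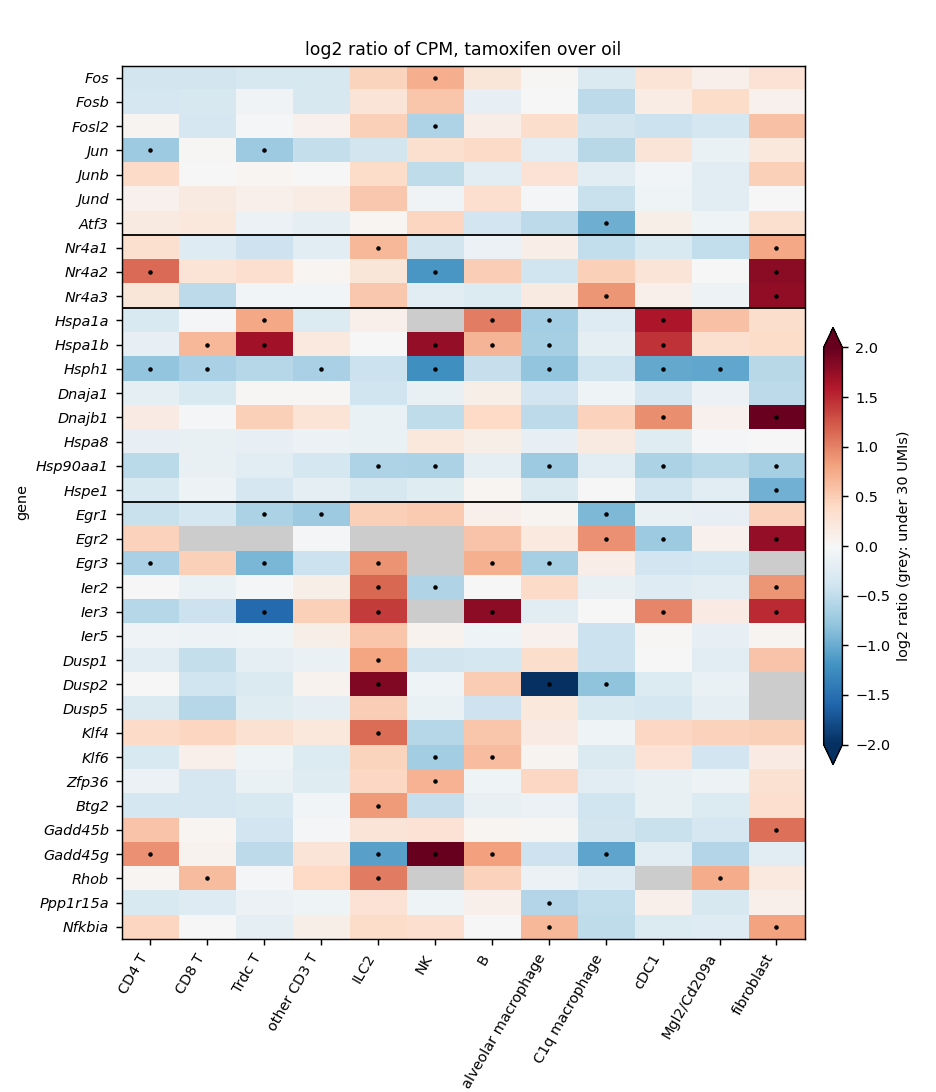
Log2 ratio of CPM, tamoxifen over oil, for each gene (rows) in each gate (columns); red is higher with tamoxifen, blue lower, grey has fewer than 30 UMIs, and dots mark ratios of at least 1.5-fold. The Hsph1 and Hsp90aa1 rows are blue in every gate, and the Hspa1a and Hspa1b rows are red in cDC1 and Trdc T cells and blue in alveolar macrophages.

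Hsph1, the Hsp110 that recharges Hsp70 by nucleotide exchange, was lower with tamoxifen in 12 of 12 gates, with a mean log2 ratio of -0.71 and an interval below 0 in 11. In T cells it had 223 CPM with tamoxifen and 387 CPM with oil in the CD4 gate, 268 and 419.9 CPM in the CD8 gate, 309 and 461 CPM in the Trdc gate and 222 and 348 CPM in other T cells. The ratios of these gates were close to one another, from -0.79 to -0.58. In the other lymphoid gates it had 179 and 417 CPM in NK cells (log2 ratio -1.22, -1.62 to -0.84), the lowest ratio, 242 and 333 CPM in B cells and 145 and 195 CPM in ILC2, where the interval (-0.96 to 0.06) held 0. In myeloid gates it had 98.5 and 171 CPM in alveolar macrophages, 141 and 186 CPM in C1q macrophages, 189.9 and 385 CPM in cDC1 (log2 ratio -1.02, -1.18 to -0.86) and 135 and 275 CPM in the Mgl2/Cd209a gate (log2 ratio -1.03, -1.26 to -0.81). Fibroblasts had 163 and 239 CPM. After thinning, the share of cells with an Hsph1 UMI was lower with tamoxifen in every gate. It was 28.0 and 40.7% with tamoxifen and oil in CD4 T cells and 22.4 and 42.6% in cDC1. In some gates the intervals of the shares overlapped, as in C1q macrophages, at 15.6 and 19.8%. Of 2126 genes with at least 30 UMIs in every gate, 18 (0.847%) were lower in all 12 gates, and Hsph1 and Hsp90aa1 were among them.

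Hsp90aa1, the inducible Hsp90, was the other member lower in 12 of 12 gates, with a mean log2 ratio of -0.45. It had 1007 and 1459 CPM with tamoxifen and oil in CD4 T cells (log2 ratio -0.54, -0.61 to -0.46), 893 and 1378 CPM in NK cells, 730.1 and 1124 CPM in ILC2, 391 and 645 CPM in alveolar macrophages (log2 ratio -0.72, -0.80 to -0.64), 739 and 1141 CPM in cDC1 and 1059.5 and 1685 CPM in fibroblasts. The smallest difference was in CD8 T cells, at 1005 and 1112 CPM (log2 ratio -0.15, -0.24 to -0.05). Hspe1, the mitochondrial Hsp10, was lower in 11 gates, as were 2.54% of the 2126 genes in at least 11. Its ratios were smaller, with a mean of -0.28; the exception was B cells, with 850.2 and 824 CPM, and the lowest ratio that of fibroblasts, with 228 and 444 CPM (log2 ratio -0.96, -1.41 to -0.53). Hspa8 had 2009 and 2253 CPM in CD4 T cells and 2618 and 2320.4 CPM in C1q macrophages, and its ratios lay within -0.24 and 0.21 in all gates. Dnaja1, an Hsp40 that presents clients to Hsp70, ranged from -0.53 in fibroblasts to 0.11 in B cells. Dnaja1 overlaps Smu1, and Hspe1 overlaps Hspd1, on the opposite strand, and no source used here says whether strand entered the counting.

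The lower Hsph1 of tamoxifen T cells was present at each level of mitochondrial transcripts, a common measure of cell damage. In the 4 T gates summed, Hsph1 stood at 239 CPM with tamoxifen and 374 CPM with oil in cells with under 2% mitochondrial UMIs, at 239.8 and 387 CPM from 2 to 4%, at 215 and 342 CPM from 4 to 6%, and at 204 and 307 CPM from 6 to 10%. Cells of 10 to 25%, which were left out elsewhere, had 120.0 and 188 CPM. Hspa1a was lower in each higher band of T cells up to 10% in both libraries, at 79.8, 44.5, 40.9 and 21.6 CPM with tamoxifen and 134, 53.2, 29.04 and 19.9 CPM with oil, but had 42.3 and 28.9 CPM with tamoxifen and oil in cells of 10 to 25%. Removing barcodes with neutrophil, epithelial or red cell transcripts left the mean log2 ratio of Hsph1 at -0.70 and that of Hsp90aa1 at -0.45.

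**Figure D3:**
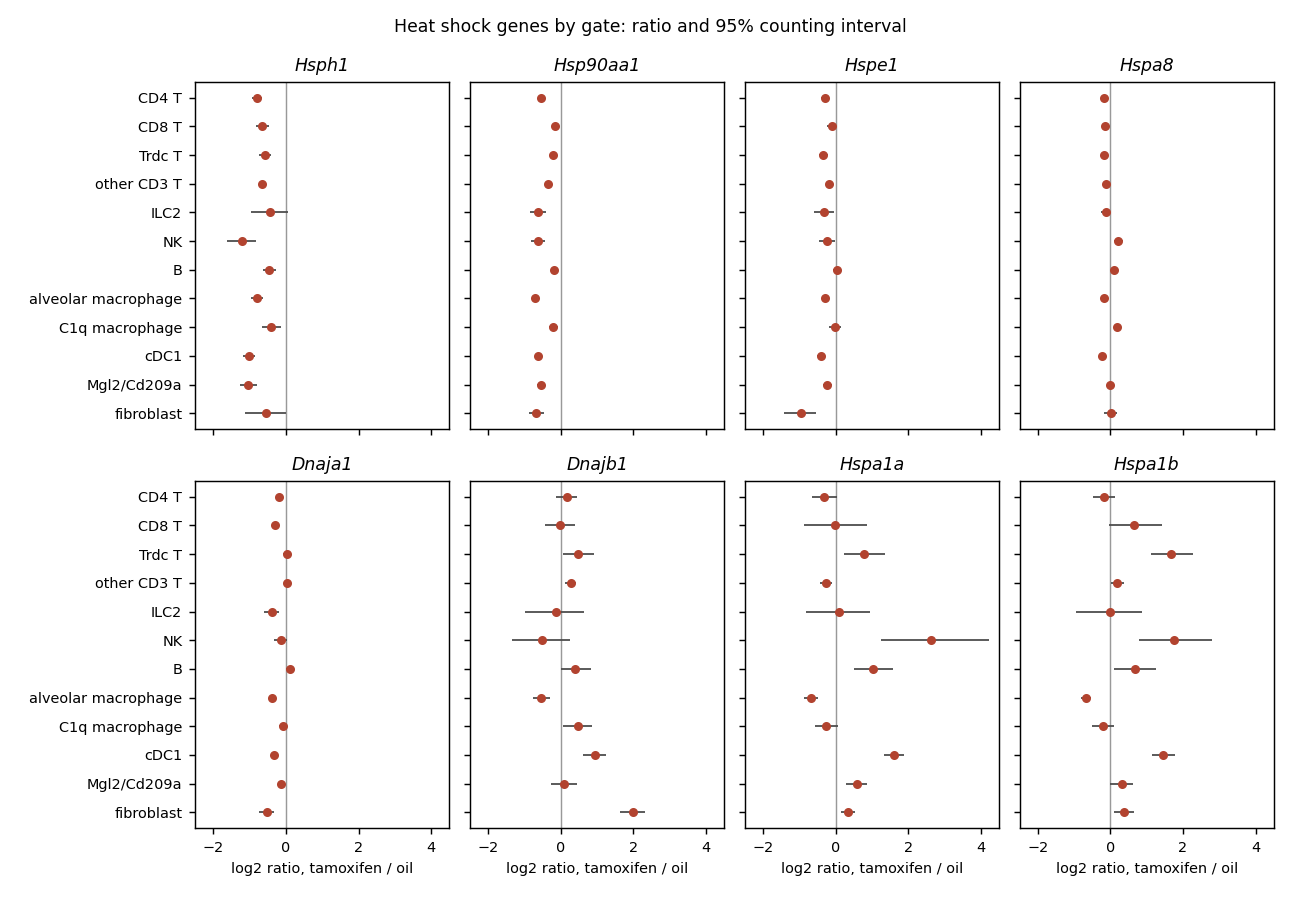
Log2 ratio of CPM, tamoxifen over oil (points), with 95% counting interval (lines) for the 8 heat shock genes in each gate. All 12 points of Hsph1 and of Hsp90aa1 lie left of 0, while Hspa1a, Hspa1b and Dnajb1 have points on both sides.

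Hspa1a and Hspa1b did not follow Hsph1. In dendritic cells of the cDC1 gate Hspa1a had 181 and 59.1 CPM with tamoxifen and oil (log2 ratio 1.61, 1.34 to 1.90) and Hspa1b 128 and 46.8 CPM (log2 ratio 1.45, 1.14 to 1.77), while Hsph1 was lower in the same cells. The UMIs of Hspa1a came from 82 of 194 tamoxifen cells and 52 of 178 oil cells, and the 5 highest cells gave 32.96% and 46.5% of them. Dnajb1, the Hsp40 partner of the inducible Hsp70, went the same way there, with 101 and 52.9 CPM (log2 ratio 0.93, 0.62 to 1.25). In the Mgl2/Cd209a gate the values were 134 and 89.4 CPM for Hspa1a and 99.4 and 79.7 CPM for Hspa1b. With the cDC1 and Mgl2/Cd209a gates summed, Hspa1a was higher with tamoxifen in male but not in female cells, as given below.

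The lymphoid gates had low levels of both genes. In Trdc T cells Hspa1a had 49.7 and 28.96 CPM (log2 ratio 0.78, 0.22 to 1.36) and Hspa1b 76.6 and 23.9 CPM (log2 ratio 1.68, 1.12 to 2.28); a single tamoxifen cell gave 38.2% of the Hspa1b UMIs of that library. Hspa1a was not higher in the other T gates, with 50.8 and 62.9 CPM in CD4, 15.3 and 15.5 CPM in CD8 and 50.4 and 60.7 CPM in other T cells. Hspa1b had 67.6 and 76.04 CPM in CD4, 29.6 and 18.8 CPM in CD8 (log2 ratio 0.66, -0.05 to 1.41) and 55.8 and 48.8 CPM in other T cells. In B cells Hspa1a had 54.2 and 26.7 CPM (log2 ratio 1.02, 0.50 to 1.57) and Hspa1b 39.5 and 24.8 CPM (log2 ratio 0.67, 0.11 to 1.26). Both genes were thus higher with tamoxifen in B cells, while the CD8 interval of Hspa1b held 0. In NK cells Hspa1b had 70.1 and 20.7 CPM (log2 ratio 1.76, 0.78 to 2.80), and Hspa1a 54.5 and 8.88 CPM from 21 and 6 UMIs, with 66.7% of the tamoxifen UMIs in 1 cell. In ILC2 both intervals held 0, with 54.2 and 50.5 CPM of Hspa1a and 50.6 and 50.5 CPM of Hspa1b.

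In alveolar macrophages the direction turned in the sexes summed, though Hspa1b was not lower in their female cells, as given below. Alveolar macrophages had 67.7 and 109 CPM of Hspa1a with tamoxifen and oil (log2 ratio -0.69, -0.88 to -0.49) and 127 and 201 CPM of Hspa1b (log2 ratio -0.66, -0.80 to -0.52), and Dnajb1 was lower as well, at 49.5 and 71.5 CPM. A single oil cell gave 13.8% of the Hspa1b UMIs. C1q macrophages had 106 and 126 CPM of Hspa1a (-0.57 to 0.07) and 122 and 140.1 CPM of Hspa1b (-0.49 to 0.11), and both intervals held 0. Fibroblasts had more of both than any other gate, with 1569 and 1235 CPM of Hspa1a and 853 and 658 CPM of Hspa1b, and the largest difference of Dnajb1, at 1081 and 275 CPM (log2 ratio 1.98, 1.63 to 2.33), from 35 and 43 cells.

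Fos differed between gates in direction. In the 4 T gates it was lower with tamoxifen by nearly the same ratio, with 437 and 561 CPM in CD4 (log2 ratio -0.36, -0.47 to -0.25), 418 and 538 CPM in CD8 (log2 ratio -0.36, -0.51 to -0.22), 728 and 912 CPM in Trdc (log2 ratio -0.33, -0.44 to -0.21) and 758 and 949 CPM in other T cells (log2 ratio -0.32, -0.37 to -0.28). None of these reached 1.5-fold. After thinning, Fos was found in 22.5 and 25.7% of tamoxifen and oil cells in CD4 and 25.5 and 26.7% in CD8. The shares were 37.1 and 35.8% in Trdc and 40.2 and 39.4% in other T cells, so not lower there. Their intervals overlapped in each T gate. The 5 highest cells gave 26.9 to 39.2% of Fos UMIs in the CD4, CD8 and Trdc gates, and 5.68 and 10.3% in other T cells. The summed level of Fos was higher in NK cells, at 428 and 259 CPM (log2 ratio 0.73, 0.41 to 1.04), and in ILC2, at 857 and 632 CPM. It was also higher in B cells, at 288 and 243 CPM, and in cDC1, at 1207 and 998 CPM. A single tamoxifen cell gave 28.5% of the tamoxifen Fos UMIs of NK cells and 32.5% of those of ILC2. After thinning, Fos was found in 29.1 and 24.0% of NK cells and 40.0 and 39.6% of ILC2. The shares were 20.8 and 21.3% in B cells and 45.3 and 50.0% in cDC1, and the intervals overlapped in each of these gates. Alveolar macrophages had 475 and 466 CPM and the Mgl2/Cd209a gate 975 and 908 CPM, while C1q macrophages had less, at 1212 and 1488 CPM (log2 ratio -0.30, -0.39 to -0.20). Fibroblasts had 10502 and 8626 CPM (log2 ratio 0.28, 0.21 to 0.36).

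Jun, which forms AP-1 with Fos or as a dimer of its own, was more than 1.5-fold lower in CD4 T cells, at 147 and 242 CPM (log2 ratio -0.72, -0.90 to -0.54), and in Trdc T cells, at 261 and 431 CPM (log2 ratio -0.72, -0.91 to -0.55). Other T cells had 261 and 363 CPM and CD8 T cells 152 and 150.0 CPM, so the CD8 gate did not share the difference. Jun had 260.2 and 335 CPM in ILC2 (log2 ratio -0.36, -0.75 to 0.0017), 88.3 and 71.03 CPM in NK cells (log2 ratio 0.31, -0.36 to 0.98) and 154 and 118 CPM in B cells (log2 ratio 0.39, 0.13 to 0.65). The myeloid gates had 199 and 229 CPM in alveolar macrophages, 376 and 554 CPM in C1q macrophages, 385 and 321 CPM in cDC1 and 416 and 455 CPM in the Mgl2/Cd209a gate. Fibroblasts had 6393 and 5522 CPM. Jun overlaps the antisense gene Junos.

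The other AP-1 genes had patterns of their own. In CD4 T cells Junb, which restrains Jun in many settings, was higher, at 3016 and 2322 CPM (log2 ratio 0.38, 0.33 to 0.43), against 3185 and 3089 CPM in Trdc and 3003 and 2999 CPM in other T cells. In C1q macrophages all 7 AP-1 genes were lower with tamoxifen, and the arm summed to 4891 and 6581 CPM (log2 ratio -0.43, -0.47 to -0.38), with the lowest ratio for Atf3, a stress-induced repressor, at 495 and 972 CPM (log2 ratio -0.97, -1.10 to -0.85). Median UMIs per cell were 10454 and 6943 in those tamoxifen and oil cells, and platelet genes summed to 476 and 1223 CPM; their part in the result was not tested. In ILC2, 6 of the 7 genes were higher and the arm had 6401 and 5079.6 CPM (0.26 to 0.41). Fosl2 in NK cells was the remaining AP-1 value past 1.5-fold, at 301 and 462 CPM.

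**Figure D4:**
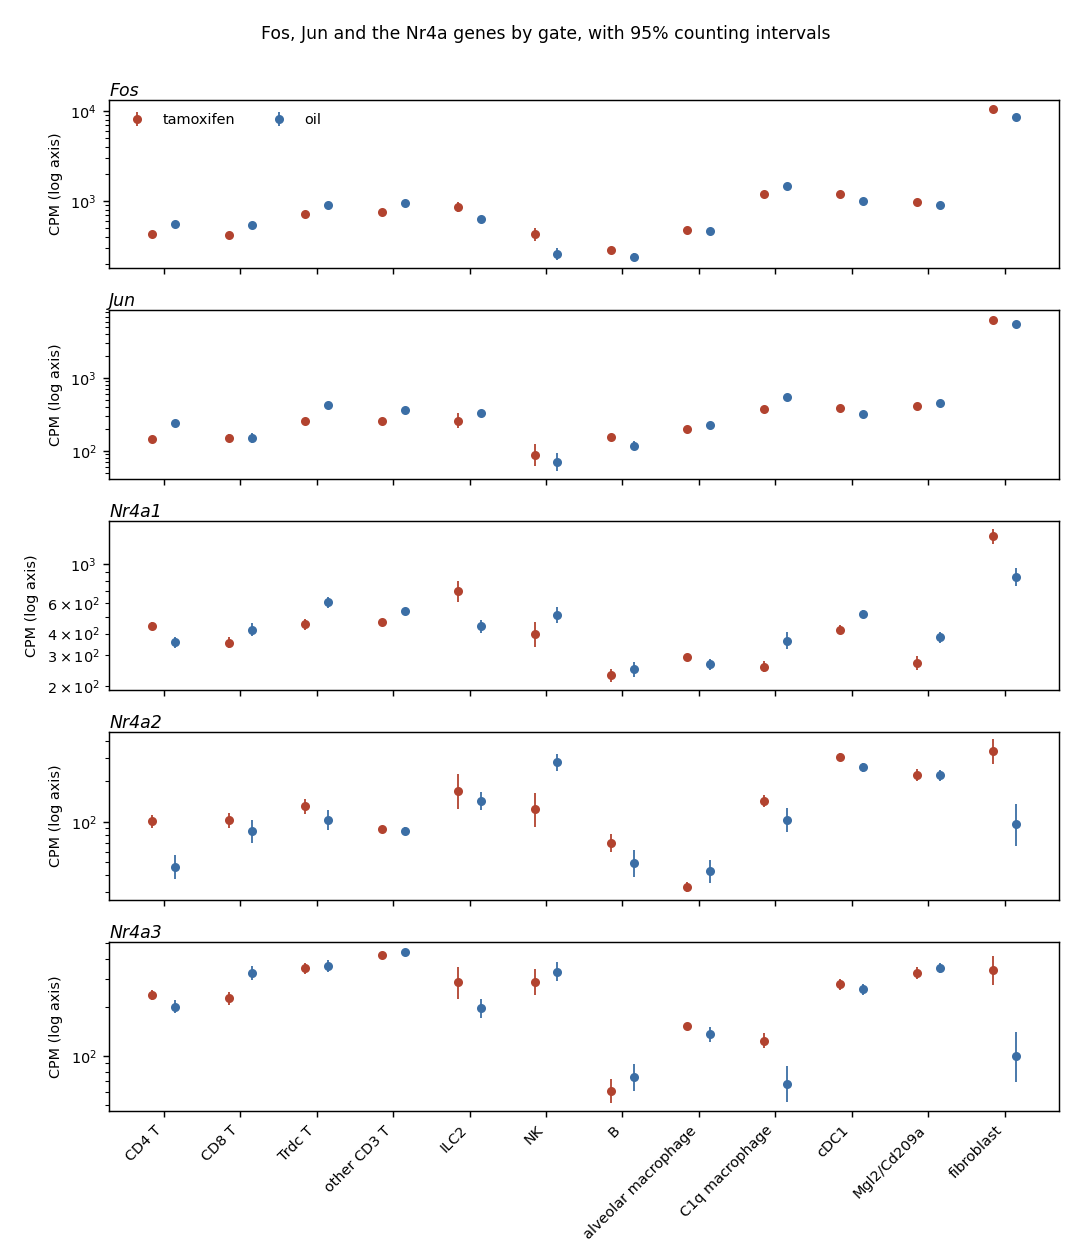
CPM on a log axis of Fos, Jun, Nr4a1, Nr4a2 and Nr4a3 in each gate, tamoxifen in red and oil in blue, with 95% counting intervals. The red Fos points lie below the blue in all 4 T gates and above them in NK cells, and the red Nr4a points lie above the blue in fibroblasts.

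The Nr4a receptors are induced in T cells by the antigen receptor, and CD4 T cells were the lymphoid gate past 1.5-fold in the higher direction beside ILC2. There Nr4a2 had 101 and 46.3 CPM with tamoxifen and oil (log2 ratio 1.13, 0.80 to 1.47), Nr4a1 443 and 357 CPM (log2 ratio 0.31, 0.18 to 0.44) and Nr4a3 239 and 202 CPM (log2 ratio 0.24, 0.07 to 0.42). Nr4a2 was found in 134 of 575 tamoxifen and 43 of 371 oil cells, and the 5 highest oil cells gave 45.3% of the oil UMIs. In female CD4 T cells it had 121 and 41.1 CPM, and the 64 and 9 male cells had 32.2 and 32.6 CPM. Fos, Jun and Egr1 were lower in the same CD4 T cells.

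The remaining T gates did not share that pattern for Nr4a1 and Nr4a3. Nr4a2 was higher with tamoxifen in each of them, though below 1.5-fold. Across the 12 gates Nr4a2 was higher in 10, with a mean log2 ratio of 0.29. In CD8 T cells Nr4a1 had 354 and 422 CPM, Nr4a2 103 and 84.8 CPM and Nr4a3 227 and 326 CPM (log2 ratio -0.52, -0.71 to -0.33). Trdc T cells had 452 and 605 CPM of Nr4a1 (log2 ratio -0.42, -0.56 to -0.28), 130.3 and 104 CPM of Nr4a2 and 348 and 359.8 CPM of Nr4a3. Other T cells had 465 and 539 CPM of Nr4a1, 88.2 and 85.4 CPM of Nr4a2 and 423 and 439 CPM of Nr4a3. Nr4a1 was thus higher with tamoxifen in the CD4 gate and lower in the other 3 T gates.

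NK cells had the lowest Nr4a ratio of the 12 gates: Nr4a2 had 125 and 279.7 CPM (log2 ratio -1.17, -1.66 to -0.70), Nr4a1 397 and 514 CPM and Nr4a3 288 and 333 CPM. ILC2 had 701 and 441 CPM of Nr4a1 (log2 ratio 0.67, 0.42 to 0.91), 169.9 and 144 CPM of Nr4a2 and 286 and 197 CPM of Nr4a3. B cells had 230.3 and 249 CPM of Nr4a1, 69.8 and 49.5 CPM of Nr4a2 and 60.7 and 73.7 CPM of Nr4a3. With tamoxifen, Nr4a1 and Nr4a3 had fewer CPM in the B gate, which also held the plasma transcripts given above, than in any other gate.

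Among myeloid cells, C1q macrophages had less Nr4a1, at 259 and 365 CPM (log2 ratio -0.50, -0.69 to -0.30), and more Nr4a3, at 124 and 67.3 CPM (log2 ratio 0.88, 0.49 to 1.30), with Nr4a2 at 144 and 103 CPM. Nr4a1 was lower in the cDC1 and Mgl2/Cd209a gates, at 421 and 519.6 CPM in the first and 272 and 381 CPM in the other. Nr4a2 was at its highest among immune cells in tamoxifen cDC1, at 305 and 255 CPM, with 224 and 222 CPM in the Mgl2/Cd209a gate, where Nr4a3 had 328 and 352 CPM and in cDC1 278 and 259 CPM. Alveolar macrophages had 292 and 266 CPM of Nr4a1, 32.6 and 42.8 CPM of Nr4a2, the lowest of any gate, and 154 and 136 CPM of Nr4a3. Fibroblasts had all 3 higher, with 1454 and 851 CPM of Nr4a1, 336 and 96.6 CPM of Nr4a2 (log2 ratio 1.80, 1.21 to 2.43) and 339.9 and 99.6 CPM of Nr4a3 (log2 ratio 1.77, 1.18 to 2.39); the 5 highest tamoxifen cells gave 76.3% of the Nr4a2 UMIs. The epithelial transcripts of tamoxifen fibroblasts given above stand beside these values, and their part was not tested.

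Egr1, the zinc finger factor that follows Fos and Jun across gates, was lower with tamoxifen in other T cells, at 203 and 336 CPM (log2 ratio -0.73, -0.80 to -0.65), in Trdc T cells, at 211 and 327 CPM, and in C1q macrophages, at 444 and 829.6 CPM (log2 ratio -0.90, -1.03 to -0.77), and higher in fibroblasts, at 4350.3 and 3152 CPM. Egr2 belongs to another pattern: it was high in alveolar macrophages, at 349 and 304 CPM, and under 50 CPM in every lymphoid gate. In fibroblasts Egr2 had 123 and 36.2 CPM (log2 ratio 1.76, 0.78 to 2.85), from 34 and 12 UMIs. Egr3 was highest in cDC1, at 223 and 289.7 CPM.

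The feedback genes moved with the cell type. In CD4 T cells Gadd45b, a stress protein induced by NF-kB, had 996 and 672 CPM (log2 ratio 0.57, 0.48 to 0.66) and Nfkbia, the inhibitor of NF-kB, 1638 and 1217 CPM (log2 ratio 0.43, 0.36 to 0.50), whereas Btg2, an antiproliferative gene, had 1083 and 1384 CPM (log2 ratio -0.35, -0.43 to -0.28). Nfkbia was past 1.5-fold in alveolar macrophages, at 545 and 346 CPM (log2 ratio 0.66, 0.56 to 0.76), and in fibroblasts, at 1099 and 631 CPM. Gadd45b was past it in fibroblasts, at 1396 and 652 CPM (log2 ratio 1.10, 0.85 to 1.34), and Gadd45g, its relative, was lower in C1q macrophages, at 41.3 and 85.8 CPM (log2 ratio -1.06, -1.48 to -0.62). Klf4, a zinc finger factor of macrophages and other cells, was higher with tamoxifen in 10 of 12 gates, at 238 and 178 CPM in cDC1 and 163 and 121 CPM in CD8 T cells, below 1.5-fold outside ILC2. No member was higher in 11 or more gates, as 6.02% of the 2126 genes were, and 1.46% of them were higher in 12. Klf4 was lower in NK cells, at 59.7 and 88.8 CPM, and in C1q macrophages, at 379 and 404 CPM.

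The rest of these genes are given by their range over the gates. Fosb, the inducible partner of Jun, lay between 167 and 2647 CPM with tamoxifen and between 186 and 2503 CPM with oil, with log2 ratios from -0.52 in C1q macrophages to 0.56 in NK cells. Fosl2, a Fos-related subunit, lay between 63.8 and 570.1 CPM with tamoxifen and between 58.03 and 557 CPM with oil, with log2 ratios from -0.62 in NK cells to 0.58 in fibroblasts. Jund, the least inducible Jun gene, lay between 712 and 2260.1 CPM with tamoxifen and between 620.2 and 2283 CPM with oil, with log2 ratios from -0.45 in C1q macrophages to 0.53 in ILC2. These 3 AP-1 genes had no ratio of 1.5-fold outside Fosl2 in NK cells. Dusp1, a phosphatase that turns off p38 and JNK, lay between 108 and 2549 CPM with tamoxifen and between 138 and 1715 CPM with oil, with log2 ratios from -0.47 in CD8 T cells to 0.78 in ILC2. Dusp5, whose promoter is shown above, lay between 61.5 and 478 CPM with tamoxifen and between 33.2 and 554 CPM with oil, with log2 ratios from -0.58 in CD8 T cells to 0.50 in ILC2. Zfp36, which destabilises cytokine messages, lay between 84.2 and 2441 CPM with tamoxifen and between 97.97 and 1969 CPM with oil, with log2 ratios from -0.34 in CD8 T cells to 0.70 in NK cells. Fibroblasts held the highest level of Fosb, Jund, Dusp1 and Zfp36 in both libraries. Klf6, a zinc finger factor, lay between 187 and 915 CPM with tamoxifen and between 122 and 818 CPM with oil, with log2 ratios from -0.70 in NK cells to 0.61 in B cells. Rhob, an endosomal GTPase, lay between 7.35 and 781 CPM with tamoxifen and between 4.51 and 682 CPM with oil, with log2 ratios from -0.26 in C1q macrophages to 1.04 in ILC2. Ppp1r15a, which reverses the stress block of translation, lay between 24.8 and 492 CPM with tamoxifen and between 37.3 and 459 CPM with oil, with log2 ratios from -0.59 in alveolar macrophages to 0.29 in ILC2. Each of these 3 had both higher and lower ratios. Ier5, an early response gene, lay between 149 and 439 CPM with tamoxifen and between 119.9 and 429 CPM with oil, with log2 ratios from -0.43 in C1q macrophages to 0.56 in ILC2. Gadd45g lay between 13.8 and 116 CPM with tamoxifen and between 7.31 and 136 CPM with oil, with log2 ratios from -1.09 in ILC2 to 2.08 in NK cells.

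Several large ratios rested on few cells. Dusp2, a phosphatase of MAP kinases, had the lowest ratio of all pairs in alveolar macrophages, at 5.03 and 22.6 CPM (log2 ratio -2.16, -2.67 to -1.65), but 1 oil cell gave 48.3% of the oil UMIs. In ILC2 Dusp2 had 169.9 and 47.1 CPM (log2 ratio 1.85, 1.26 to 2.44), with 55.3% of the tamoxifen UMIs in 1 cell. Ier3, an anti-apoptotic early response protein, had 889.6 and 317 CPM in fibroblasts (log2 ratio 1.49, 1.15 to 1.83), 181 and 68.5 CPM in ILC2 (log2 ratio 1.40, 0.86 to 1.93), 20.4 and 5.87 CPM in B cells (log2 ratio 1.80, 0.75 to 3.01) and 15.8 and 46.3 CPM in Trdc T cells (log2 ratio -1.55, -2.26 to -0.88). A single tamoxifen cell held 89.4% of its B cell UMIs and 66.00% of its ILC2 UMIs, and a single oil cell 54.7% of those of Trdc T cells. Ier2 in ILC2 had 477 and 214 CPM (log2 ratio 1.16, 0.84 to 1.47).

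Counts of members past 1.5-fold are set beside the same count over all genes with at least 30 UMIs in that gate. In CD4 T cells 2 of 36 tested members were higher and 3 lower, beside 8.01% and 6.5% of 8564 genes. CD8 T cells had 2 higher and 1 lower of 35 (background 7.99% and 7.02%), Trdc T cells 2 and 4 of 35 (8.58% and 5.27%) and other T cells 0 and 2 of 36 (5.77% and 5.09%). NK cells had 4 and 6 of 31 (8.25% and 20.9%), and B cells 6 and 0 of 36 (9.04% and 6.4%). Over all tested genes the median log2 ratio of NK cells was -0.14, while that of each other gate lay within 0.1 of 0, so ratios in NK cells are read against that shift.

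ILC2 had 9 higher and 2 lower of 35, where 9.91% of genes were higher and 20.3% lower, so the members ran against the lower lean of that gate. The 9 were Nr4a1, Egr3, Ier2, Ier3, Dusp1, Dusp2, Klf4, Btg2 and Rhob. Both the neutrophil and the red cell transcripts named above differ between the ILC2 cells of the libraries, and 72 of 76 tamoxifen cells and 248 of 252 oil cells remained without such barcodes. Of the named ILC2 genes, Ier2, Ier3 and Dusp2 turned to a lower ratio in at least 1 other choice of cells, given in the closing part.

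Alveolar macrophages had 1 higher and 7 lower of 36 (7.47% and 6.41%), C1q macrophages 2 and 4 of 36 (16.2% and 10.3%), cDC1 4 and 3 of 35 (5.43% and 7.95%) and the Mgl2/Cd209a gate 1 and 1 of 36 (9.07% and 7.05%). The 7 of alveolar macrophages included Hspa1a, Hspa1b, Hsph1 and Hsp90aa1. Fibroblasts had 9 higher and 2 lower of 33 (11.7% and 12%): all 3 Nr4a genes, Dnajb1, Egr2, Ier2, Ier3, Gadd45b and Nfkbia were higher, and Hsp90aa1 and Hspe1 lower.

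Each library held cells of both sexes, told by Xist and by 4 Y-linked genes: 6156 female and 1679 male of the kept tamoxifen cells, 3714 and 1413 of the oil cells. The mix differed between the libraries within gates. Alveolar macrophages had 1339 female and 104 male cells with tamoxifen and 143 and 56 with oil. C1q macrophages had 190 and 25 with tamoxifen and 50 and 34 with oil. The cDC1 gate had 65 female and 92 male cells with tamoxifen and 96 and 68 with oil. The part of this mix in the ratios of whole gates was not tested. The sexes come from different animals of a pool, but the number of animals of each sex is not known. Sex and animal cannot be told apart, so these values do not measure the spread between animals. Hsph1 was lower with tamoxifen in 10 of 12 gates in female cells and in 12 of 12 in male cells. The exceptions were female ILC2, at 164 and 147 CPM with tamoxifen and oil (log2 ratio 0.16, -0.68 to 0.91), and female C1q macrophages, with 151 and 139 CPM (log2 ratio 0.12, -0.27 to 0.53), where both intervals held 0. In the 4 T gates summed, female cells had 236 CPM with tamoxifen against 323 CPM with oil and male cells 242 CPM with tamoxifen against 482 CPM with oil. In alveolar macrophages female cells had 98.05 CPM with tamoxifen against 125 CPM with oil and male cells 118 CPM with tamoxifen against 301 CPM with oil. The male oil cells were the ones that stood apart. The cDC1 and Mgl2/Cd209a gates summed gave the same order, with 169 CPM with tamoxifen against 236 CPM with oil in female and 187 CPM with tamoxifen against 468 CPM with oil in male cells, as did B cells, with 239.5 CPM with tamoxifen against 302 CPM with oil in female and 227 CPM with tamoxifen against 539.6 CPM with oil in male cells (37 and 16 male cells).

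Hsp90aa1 was lower in 10 of 12 gates in female cells and in 11 of 12 in male cells. Averaged over the 12 gates, the log2 ratio of Hsph1 was -0.40 in female and -1.18 in male cells, and that of Hsp90aa1 -0.22 and -0.75. Hsp90aa1 in female B cells had 1261 CPM with tamoxifen against 1222 CPM with oil, so its lower level was not seen in that set of female cells.

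Fos and Jun in T cells had the opposite arrangement. Female T cells had 554 CPM with tamoxifen against 829 CPM with oil of Fos (log2 ratio -0.58) and male T cells 863 CPM with tamoxifen against 880.4 CPM with oil (-0.03). For Jun, female T cells had 189 CPM with tamoxifen against 301 CPM with oil and male T cells 328 CPM with tamoxifen against 399.8 CPM with oil. The female tamoxifen cells stood apart here, while Egr1 was lower in both sexes, with 179.5 CPM with tamoxifen against 289 CPM with oil in female and 189 CPM with tamoxifen against 303 CPM with oil in male T cells.

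Hspa1a and Hspa1b were higher with tamoxifen in male cells of the T gates and of the cDC1 and Mgl2/Cd209a gates. In the T gates Hspa1a had 33.3 CPM with tamoxifen against 46.3 CPM with oil in female and 63.5 CPM with tamoxifen against 25.6 CPM with oil in male cells. In the cDC1 and Mgl2/Cd209a gates summed Hspa1a had 73.01 CPM with tamoxifen against 82.5 CPM with oil in female and 229.6 CPM with tamoxifen against 44.8 CPM with oil in male cells, and Hspa1b 81.4 CPM with tamoxifen against 65.05 CPM with oil in female and 140.2 CPM with tamoxifen against 58.1 CPM with oil in male cells. In alveolar macrophages female cells had 127 CPM with tamoxifen against 123 CPM with oil of Hspa1b and male cells 133 CPM with tamoxifen against 441 CPM with oil. Whether the sexes differ was not tested, since each library gives 1 value per sex, and the sex and the animal cannot be told apart.

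**Figure D5:**
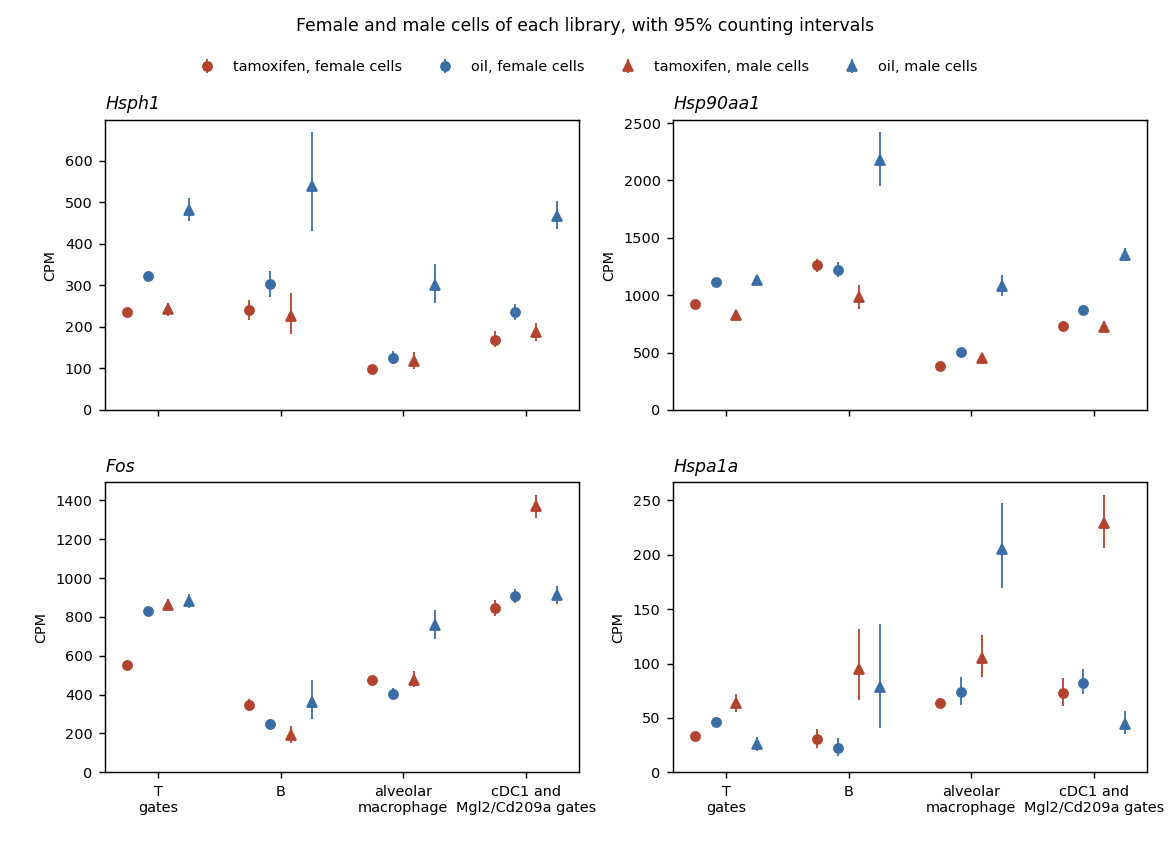
CPM of Hsph1, Hsp90aa1, Fos and Hspa1a in female (circles) and male (triangles) cells of the tamoxifen (red) and oil (blue) library, for the T gates summed, B cells, alveolar macrophages and the cDC1 and Mgl2/Cd209a gates summed, with 95% counting intervals. The blue triangles of Hsph1 and Hsp90aa1 lie above the other points of each set, and the red circle of Fos lies lowest among T cells.

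The wider pathways were read from lists of further genes. Of 20 other heat shock genes, Stip1 and St13, which link or steady Hsp70 and Hsp90, were lower with tamoxifen in 12 of 12 gates, with mean log2 ratios of -0.51 and -0.28, and Hsp90ab1, Cacybp, Chordc1 and Fkbp4 in 11 of 12. Hsph1, Hsp90aa1 and genes of this list made up 4 of the 18 genes that were lower in all 12 gates (Hsph1, Hsp90aa1, Stip1 and St13). The list's median log2 ratio lay between -0.49 in cDC1 and 0.0036 in C1q macrophages, below that of all tested genes in each of the 12 gates. Hspb1, a small heat shock protein, went its own way, with 3.55 and 39.7 CPM (log2 ratio -3.48, -3.98 to -3.00) in alveolar macrophages, 5.26 and 55.02 CPM (log2 ratio -3.39, -4.57 to -2.39) in Trdc T cells and 56.3 and 7.39 CPM (log2 ratio 2.93, 2.22 to 3.73) in cDC1. It also had 7.23 and 71.95 CPM (log2 ratio -3.32, -6.38 to -1.42) in ILC2, 9.62 and 33.6 CPM (log2 ratio -1.81, -2.46 to -1.18) in CD4 T cells and 68.97 and 174 CPM (log2 ratio -1.34, -1.63 to -1.05) in B cells.

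Hspd1, the Hsp60 partner of Hspe1, had 174 and 374 CPM (log2 ratio -1.11, -1.62 to -0.62) in fibroblasts, and Dnaja4, an Hsp40, 25.3 and 103 CPM (log2 ratio -2.02, -3.44 to -0.82). Another Hsp40, Dnajb4, had 7.79 and 53.3 CPM (log2 ratio -2.77, -5.12 to -1.11) in NK cells. Genes of the unfolded protein response of the endoplasmic reticulum, read for contrast, had at most 4 of 11 members past 1.5-fold in any gate. These 4 were higher in ILC2, beside 9.91% of all genes. The medians of the list ran from -0.40 in B cells to 0.27 in the Mgl2/Cd209a gate, on both sides of 0. Dnajb9, a chaperone of that compartment, had 54.9 and 115 CPM (log2 ratio -1.07, -1.44 to -0.69) in C1q macrophages and 64.01 and 30.9 CPM (log2 ratio 1.05, 0.60 to 1.52) in the Mgl2/Cd209a gate. Of 13 neighbours of Hspa1a and Hspa1b on chromosome 17, the most past 1.5-fold were in ILC2, with 3 higher and 1 lower of 8 tested. There 9.91% of all genes were higher and 20.3% lower. In cDC1 2 of 9 neighbours were higher and 0 lower, beside 5.43% and 7.95% of all genes. Of 26 other immediate early genes, 9 of 20 tested were higher in ILC2, beside 9.91% of all genes, Irf1 at 105 and 29.98 CPM (log2 ratio 1.81, 1.04 to 2.56) among them, and 8 of 20 were lower in NK cells, beside 20.9%, Klf2 at 98.6 and 312 CPM (log2 ratio -1.66, -2.20 to -1.16) among them. Socs3, a feedback inhibitor of cytokine receptors, had 97.6 and 35.98 CPM (log2 ratio 1.44, 0.69 to 2.17) in ILC2. In Trdc T cells Cebpd, a factor of inflammation, had 9.94 and 71.7 CPM (log2 ratio -2.85, -3.69 to -2.10). Sgk1, a serum and glucocorticoid induced kinase, had 18.2 and 73.99 CPM (log2 ratio -2.03, -3.41 to -0.88) in NK cells, 30.6 and 63.2 CPM (log2 ratio -1.05, -1.46 to -0.64) in cDC1 and 57.9 and 25.3 CPM (log2 ratio 1.19, 0.70 to 1.70) in the Mgl2/Cd209a gate. Ier5l had 16.7 and 5.75 CPM (log2 ratio 1.54, 0.64 to 2.53) in cDC1. Of 12 regulators of the pathways such as Hsf1, Srf and the MAP kinases, 3 of 7 tested were lower in NK cells, beside 20.9% of all genes. In fibroblasts 2 of 3 tested were lower, beside 12%, and in B cells 2 of 9 were higher, beside 9.04%. C1q macrophages had 1 higher and 1 lower of 11 (16.2% and 10.3% of all genes) and the Mgl2/Cd209a gate 1 and 1 of 12 (9.07% and 7.05%). Each other gate had at most 1 past 1.5-fold.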

How the data were processed

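The submitters deposited raw UMI counts per gene and barcode of 2 droplet libraries (3' tags, version 3 chemistry per the labels' protocols), made with Cell Ranger 5.0.1 on the mouse build GRCm38 (mm10) per the submitters' processing notes. No source used here says whether strand entered the counting. Barcodes with at least 300 genes and under 10% mitochondrial UMIs were kept. Barcodes that passed several gates were left out as possible doublets or free RNA, T cells with more than 1 of Cd4, Cd8b1 and Trdc likewise, and no doublet caller was run. Counts were summed per gate and library and scaled to CPM of the gate. Ratios of tamoxifen over oil carry exact conditional Poisson 95% intervals, which cover counting error of UMIs only; with 1 library per group no p-value was computed. A zero count was set to 0.5 for a ratio. The interval was tested on simulated counts. Values are called past 1.5-fold among genes with at least 30 UMIs summed.

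Named with values were the member with the highest CPM of each arm, pairs of a member and a gate with at least 30 UMIs in the higher library, a ratio of at least 2-fold and an interval excluding 1.5-fold, and Nr4a1, Nr4a2, Nr4a3, Fos, Jun, Hspa1a and Hspa1b in every gate; genes of the other lists were named by the same ratio rule. Other members are described by range, and Hsph1, Hsp90aa1, Hspe1, Stip1, St13 and the genes lower in 11 gates were singled out after their values were seen. The members and lists were chosen with earlier results of these data known. Alternatives changed the filters, gates, scaling, depth and sex of the cells. Promoter windows came from RefSeq (GRCm38.p6). Python 3.11.15, numpy 2.4.6, pandas 2.3.3, scipy 1.17.1 and matplotlib 3.10.9 were used.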

Additional observations from a re-analysis of the deposited data

Results flagged for a closer look

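Several pairs of a gene and a set of gates went opposite ways in female and male cells, among genes followed in every gate. The 5 pairs given here are not all of them. Hspa1a in the cDC1 and Mgl2/Cd209a gates summed was also lower in female and higher in male cells, with the CPM given above. Hspa1b in alveolar macrophages was slightly higher in female and lower in male cells. Each difference below is the female minus the male log2 ratio of tamoxifen over oil, and none was tested, since each library gives 1 value per sex. Fos in B cells had a log2 ratio of 0.50 in female and -0.94 in male cells, a difference of 1.44, with 37 tamoxifen and 16 oil male cells. Fos in alveolar macrophages had 0.23 and -0.67, a difference of 0.90. Fos in the cDC1 and Mgl2/Cd209a gates summed had -0.10 and 0.59, a difference of -0.69. Nr4a3 in the T gates had -0.16 and 0.17, a difference of -0.33. Hspa1a in the T gates had -0.48 and 1.31, a difference of -1.79.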

How the results depend on the processing

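No paired analysis was possible because each group is 1 library and the labels give no number that both share. Under 17 alternative settings, 39 of the alternative values of the 4 arms and of the count of pairs stayed within the counting error of their value or within 1.5 times their count. The mean log2 ratios over gates that moved further were, for female cells alone, 0.026 for AP-1, -0.041 for heat shock and 0.037 for the Egr, feedback and other genes; for male cells alone, -0.19 for AP-1, -0.0065 for Nr4a, -0.36 for heat shock and -0.10 for the others. With all gated cells of a library summed, which lets the gates' sizes enter, they were -0.23, -0.26, -0.28 and -0.23 for AP-1, Nr4a, heat shock and the others. With scaling that leaves out mitochondrial, ribosomal protein and member genes they were 0.037, 0.094, -0.13 and 0.048 in the same order. A fixed order of gates gave -0.016 for Nr4a, -0.15 for heat shock and -0.055 for the others, and keeping barcodes of several gates -0.14 for heat shock and -0.054 for the others. Without the ILC2, NK and fibroblast gates, AP-1 had -0.048, Nr4a -0.050 and the others -0.10. Without barcodes of other cell types AP-1 had 0.015 and the others 0.027; thinned to 1500 UMIs, 0.050 and 0.031. A mitochondrial limit of 5% gave -0.018 for AP-1 and -0.18 for heat shock, and one of 25% gave -0.15 for heat shock. The cause of these shifts was not tested. The mean of Hsph1 was -0.40 in female and -1.18 in male cells and that of Hsp90aa1 -0.22 and -0.75; neither mean was above 0 under any setting run, though 2 of 12 gates were above 0 for each gene in female cells and 1 for Hsp90aa1 in male cells. Pairs past 1.5-fold numbered 77, against 127 in male cells, which are fewer, and 27 past 2-fold. Log2 ratios that turned sign were those of Dusp2 in ILC2 at -0.84 and Ier3 in Trdc T cells at 0.14 in female cells, of Ier3 in fibroblasts at -0.16 and Nr4a2 in CD4 T cells at -0.017 in male cells, and, with barcodes of several gates kept, of Ier3 in ILC2 at -0.29, Ier2 in ILC2 at -0.13 and Nr4a2 in NK cells at 0.048. The fixed order of gates also turned Ier3 in ILC2 to -0.17 and Ier2 to -0.036. The settings on gate order, other cell types and left-out gates were chosen after seeing the data. Free RNA adds UMIs to every gate, and its part in low levels was not tested. The fibroblast, NK and ILC2 gates hold the fewest cells of the tamoxifen library.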
